A study of Mus musculus with 8 samples.

Results

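The Nr4a genes encode 3 orphan nuclear receptors, Nr4a1 (Nur77), Nr4a2 (Nurr1) and Nr4a3 (NOR-1), and were examined here through the open chromatin sites around them in mouse cortical neurons. Peaks within 50 kb of the 3 RefSeq gene bodies (GRCm38) were collected from 4 deposited ATAC-seq lists and merged wherever they overlapped by at least 1 bp. This gave 26 sites out of 62023 merged regions in all, 11 around Nr4a1, 7 around Nr4a2 and 8 around Nr4a3. ATAC-seq uses the transposase Tn5 to cut and tag accessible DNA, and the lists hold peaks of nucleosome-free fragments.

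Primary neurons came from the cortex of embryos at E16.5. Wild-type cultures (labelled Brg1 WT) were compared with Brg1-cko cultures (BAF53bCre Brg1F/F, here cKO), in which Cre driven by the neuronal subunit gene BAF53b deletes the floxed Brg1 gene, which encodes an ATPase of the BAF chromatin remodelling complex. Neurons of each genotype stayed without KCl (basal) or were depolarised with KCl, at 50 mM for 1 h, on day 6 in vitro. TTX at 1 µM and APV at 100 µM, blockers of sodium channels and NMDA receptors, were given on day 5 to silence spontaneous firing before depolarisation, and the labels do not say whether basal cultures had them. Each of the 4 conditions had 2 libraries of 50000 cells but 1 list, so no value below has a replicate error and no test compares conditions. Cultures are bulk samples, in which fewer cells with an open site and less opening per cell cannot be told apart.

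NR4A receptors bind DNA through a zinc finger domain, mostly as monomers at the NBRE element, and their ligand pocket is filled by bulky side chains, so their activity follows mainly from how much receptor is made. All 3 are early response genes that neurons transcribe without new protein synthesis after calcium entry, through CREB and its CRTC coactivators, MEF2 and SRF. In forebrain neurons they are known for roles in memory and neuroprotection, and Nr4a2 is also needed for midbrain dopamine neurons.

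In WT the basal list held 34061 peaks and the KCl list 20229, and in cKO they held 20484 and 25690, so a site can be missing from a list because fewer peaks were called in it. A whole-number fragment pileup at the summit and a local background could be solved from the authors' fold and p-value for 100% of peaks in each list. The most frequent background, which scales with depth, was between 8.23 and 9.47 fragments, and at it the weakest peaks called had 20 to 22 fragments. Smarca4, the gene of Brg1, had 1 promoter peak in every list, with a fold of 4.89 to 5.62. Whether that window falls within the floxed part is unknown, so it does not check the genotype. Of the marker promoters with a listed window, 2 or 3 of 4 pan-neuronal ones had a peak in each list, against 0 of 5 of excitatory cortical neurons, 1 or 2 of 5 of inhibitory neurons, 0 of 3 of astrocytes, 1 of 1 of oligodendrocytes, 0 of 2 of microglia and 0 of 1 of endothelium. Promoter peaks thus did not show the excitatory identity of the cultures.

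The 3 promoters differed in which lists had a peak over them, and their sequences are shown for this reason and because they share an element. Nr4a1 lies on the plus strand of chromosome 15 (chr15:101253902-101274795). Its body in the RefSeq table begins 12.9 kb before the single listed promoter start at 101266846, so that promoter lies inside the annotated body. Nr4a2 lies on the minus strand of chromosome 2 (chr2:57106830-57124003) and starts at 57124003. Nr4a3 lies on the plus strand of chromosome 4 (chr4:48045078-48086447) and starts at 48045305. The 250 bases before each start (RefSeq, GRCm38.p6, 5′ to 3′ on the gene's strand) are printed with every TGACG, or its reverse complement CGTCA, in capitals. This short element is the core of the cAMP response element (CRE) that CREB binds. The stretches are chr15:101266596-101266845, chr2:57124004-57124253 and chr4:48045055-48045304.
Nr4a1: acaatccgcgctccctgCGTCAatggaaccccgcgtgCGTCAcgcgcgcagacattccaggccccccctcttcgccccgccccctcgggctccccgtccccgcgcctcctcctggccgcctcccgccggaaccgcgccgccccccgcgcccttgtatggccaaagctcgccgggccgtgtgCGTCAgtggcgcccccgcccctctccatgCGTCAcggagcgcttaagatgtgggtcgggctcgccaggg
Nr4a2: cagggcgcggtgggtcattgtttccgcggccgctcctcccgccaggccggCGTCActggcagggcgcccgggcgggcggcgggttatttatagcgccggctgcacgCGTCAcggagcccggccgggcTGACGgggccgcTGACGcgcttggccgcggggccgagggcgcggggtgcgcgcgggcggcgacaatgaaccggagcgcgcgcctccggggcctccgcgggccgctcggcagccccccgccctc
Nr4a3: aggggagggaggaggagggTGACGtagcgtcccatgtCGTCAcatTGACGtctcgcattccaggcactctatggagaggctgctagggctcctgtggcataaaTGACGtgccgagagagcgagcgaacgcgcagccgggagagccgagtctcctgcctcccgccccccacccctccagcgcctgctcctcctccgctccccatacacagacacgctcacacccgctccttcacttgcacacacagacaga

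Each of the 3 promoters held 4 copies of the short CRE element. At least 1 copy was found in 23.6% of 21238 promoter windows of protein-coding genes (250 bases before to 50 after the start), and 4 or more in 69 of them (0.325%). The members were GC-rich, at 74.4% for Nr4a1, 80.0% for Nr4a2 and 63.6% for Nr4a3 over the printed bases, against a median of 55.6%. Among the 5626 windows at least as GC-rich as that of Nr4a3, 37 (0.658%) held 4 or more copies. The copies were spread differently. In Nr4a1 they began 233, 213, 69 and 40 bases before the start, in Nr4a2 200, 144, 123 and 111, and in Nr4a3 231, 213, 205 and 147. The short element was searched after the promoters had been read, and a match is a description and not a site of CREB binding.

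Other motifs were searched on both strands in the same windows. The full CRE TGACGTCA (2.24% of windows), the AP-1 element TGANTCA (6.99%) and the NBRE AAAGGTCA (1.30%) had 0 matches in all 3 promoters. So had the EGR element GCGTGGGCG (0.829%) and the MEF2 element (CTA and TAG with any 4 bases between, 3.47%). The CArG box bound by SRF (CCWWWWWWGG, where W is A or T, 1.53%) also had 0. Only exact matches were counted, so forms that differ by a base were not searched. The GC box GGGCGG, found in 46.2% of windows, had 3 matches in Nr4a1, 5 in Nr4a2 and 1 in Nr4a3, and 2 of those in Nr4a2 overlap. The TATA box TATAAA, found in 12.6% of windows, had 1 match, in Nr4a2.

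Nr4a1 had a promoter peak after KCl in both genotypes and none without KCl, whereas the promoters of Nr4a2 and Nr4a3 had one in all 4 lists. The Nr4a1 site (chr15:101266614-101266958) had a fold of 3.38 over the local background in WT KCl, from 47 fragments over a background of 13.2. In cKO KCl it had a fold of 2.28, from 36 fragments over 15.3. The WT KCl peak stood at the 71st percentile of fold in its list and the cKO KCl peak at the 1.62nd, near the weakest peaks called. The 2 summits lay 67 and 68 bases before the start, inside the short CRE element that spans 69 to 65 bases before it. The WT KCl peak covered 3 of the 4 elements and the cKO KCl peak 2.

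A promoter peak present in both KCl lists alone was uncommon. Of 10281 promoter windows with a peak in any list, 288 (2.80%) had this pattern and 50.5% had a peak in all 4 lists. Every other pair of lists alone was uncommon too. Both basal lists had 173 such windows, both cKO lists 176 and both WT lists 235. WT KCl with cKO basal had 107, and WT basal with cKO KCl had 542. Among WT KCl promoter peaks of about the same fold as that of Nr4a1 (the same 10% band of its list), 7.94% had no peak in WT basal. Among cKO KCl promoter peaks in the 10% band that holds that of Nr4a1, 73.3% had none in cKO basal, so the gain in cKO is common for a peak that weak. At a background within 0.5 of 15.3, the weakest peaks of WT basal and of cKO basal had 31 fragments each, fewer than either KCl peak had here. With the lists cut by p-value to the length of WT KCl, the shortest list, the cKO KCl peak was lost. WT KCl lost no peaks in this step, so it could not test the WT KCl peak. No basal list had a peak within 1 kb of the start either (0 of 2).

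**Figure D1:**
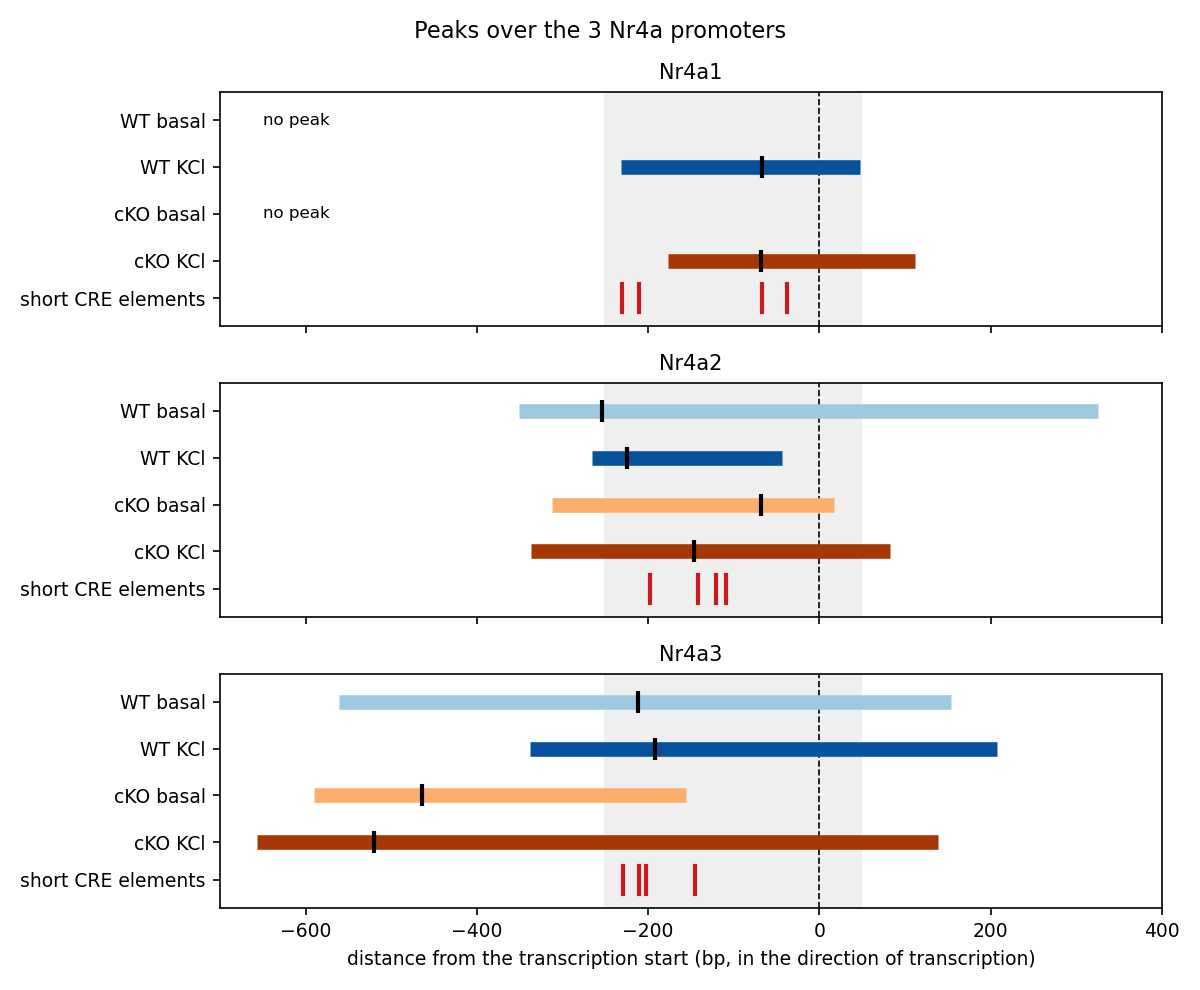
Peaks over the promoters of Nr4a1, Nr4a2 and Nr4a3 in the 4 lists, by distance from the transcription start in bp. Bars span the peaks, black ticks mark summits, the grey band is the 300-base promoter window, the dashed line the start, and red ticks the short CRE elements. Nr4a1 has bars in the 2 KCl lists only, with summits at 67 and 68 bases before the start, and the other promoters have 4 bars each.

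The Nr4a2 promoter (chr2:57123678-57124354) had a fold of 3.11 basally and 2.82 after KCl in WT, and of 2.67 and 4.17 in cKO. These rested on 31, 25, 27 and 38 fragments, each over the most frequent background of its list. Within their lists they stood at the 67.7th, 33.2nd, 30.8th and 84th percentile of fold. The peaks differed in shape: that of WT basal was 677 bp wide and that of WT KCl 223 bp, and the summits lay 254, 225, 68 and 146 bases before the start in the same order. All 4 short CRE elements lay within every peak. The predicted gene LOC105244150 overlaps this end, so the site cannot be assigned to Nr4a2 alone.

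The Nr4a3 promoter (chr4:48044648-48045513) had a fold of 2.64 basally and 2.72 after KCl in WT, and of 2.31 and 3.39 in cKO, from 51, 42, 42 and 58 fragments. The cKO basal peak was the weakest of them within its list, at the 4.75th percentile. Its summits fell into 2 places. They lay 212 and 192 bases before the start in the WT lists, near the short CRE elements, and 464 and 520 bases before it in the cKO lists. The cKO basal peak ended before the element nearest to the start, which the other 3 peaks covered. The summit of a peak from so few fragments has no known error here.

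For Nr4a1 and Nr4a3, the site with the highest fold lay outside the promoter and had a peak in every list. That of Nr4a1 (chr15:101246241-101246745) lies 20.4 kb before its start and 7.16 kb before the annotated body, away from other genes. Its fold was 4.42 basally and 4.5 after KCl in WT, and 3.48 and 4.92 in cKO, from 57, 55, 48 and 60 fragments. It stood at the 91.6th, 92.9th, 78.7th and 92nd percentile, and its summits lay within 103 bp of each other. That of Nr4a3 (chr4:48042700-48043689) lies 1.85 kb before the start, with folds of 3.64, 3.45, 3.87 and 3.73 in the same order, from 67, 52, 68 and 61 fragments. It was wide, at 733 to 940 bp, and its summits spread over 410 bp. Nr4a2 had no such site, and its only peak common to all lists was that of its promoter.

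The fifth site in all lists was at the promoter of Atg101, an autophagy initiation gene that follows Nr4a1 (chr15:101283689-101284431, 17.1 kb after the Nr4a1 start). Its folds were 2.34, 3.18, 2.28 and 3.04. Here the WT basal and cKO basal peaks did not overlap each other and were joined by the WT KCl peak. Of the 26 Nr4a sites, 5 were thus in all 4 lists, against 11.6% of all regions, and 12 were in 1 list only, against 71.4%. Sites near genes include promoters, which are shared more often, so these shares are set side by side without a test.

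**Figure D2:**
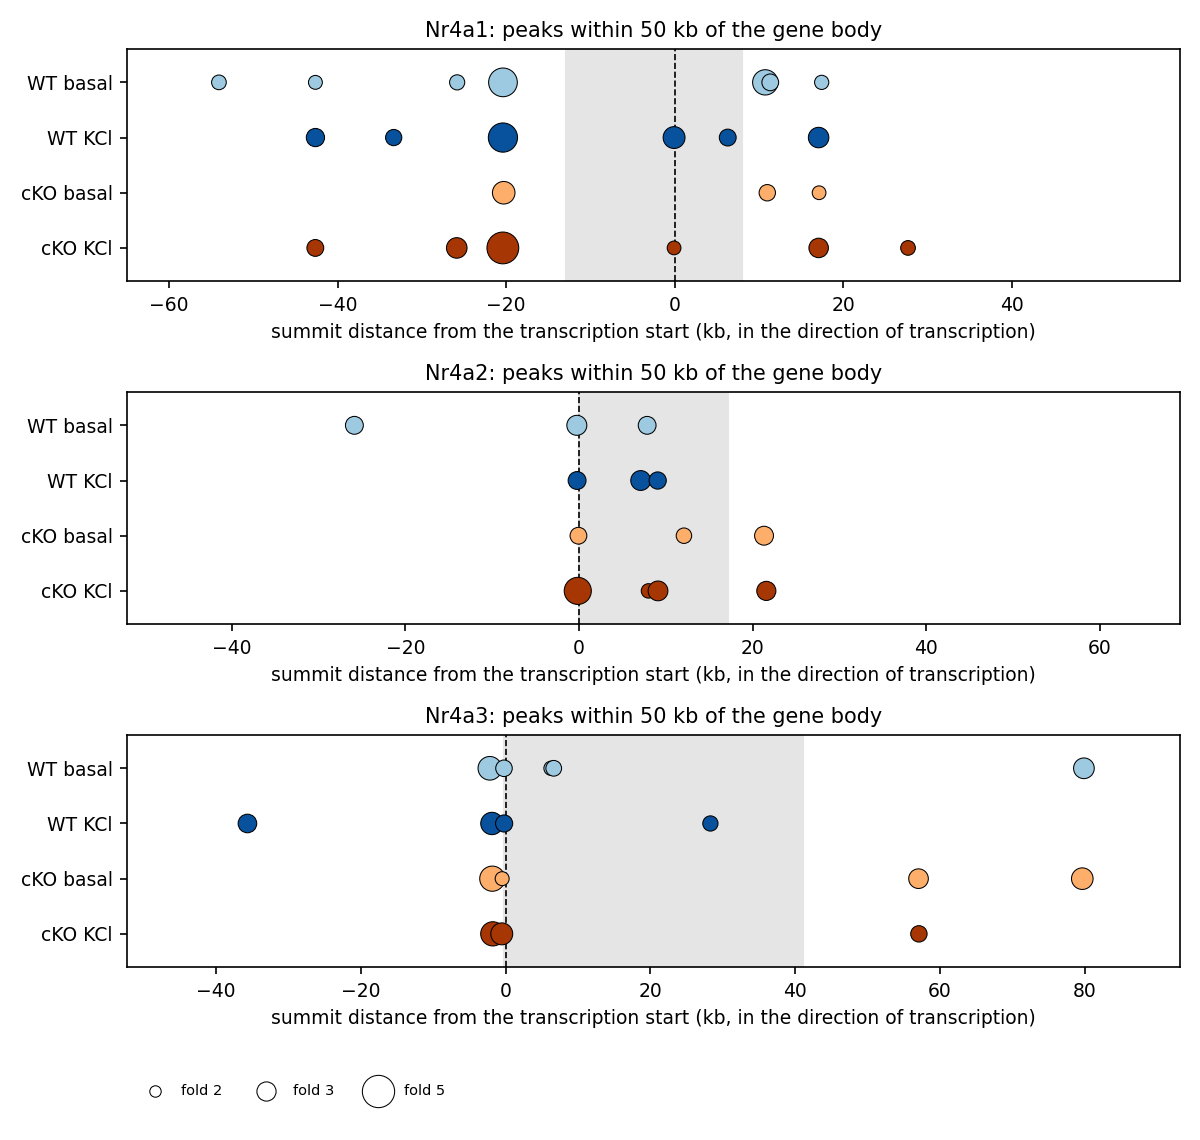
Peaks within 50 kb of each Nr4a gene body in the 4 lists, by the distance of the summit from the transcription start in kb. Circle area grows with the authors' fold, grey marks the annotated gene body and the dashed line the start. The site 20.4 kb before Nr4a1 and the pair of sites at and just before the Nr4a3 start appear in every list. Most sites inside the gene bodies, away from the promoters, have a circle in 1 list only, as had 71.4% of all regions.

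A second site was likewise present in the KCl lists alone. It lies in the body of Nr4a2, 9.07 kb after the start (chr2:57114587-57115110), and its fold was 2.73 in WT and 3.08 in cKO after KCl, from 34 and 40 fragments. The 2 peaks shared 260 bp and their summits lay 38 bp apart. The weakest peaks of both basal lists at such a background had 26 fragments. Thus 2 of the 26 Nr4a sites had the pattern of both KCl lists alone, which 1.35% of all regions had. Nr4a3 had 0 of 8, and no difference between the genes was tested.

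The opposite pattern, both basal lists and neither KCl list, also held for 2 sites, against 1.96% of all regions. One lies 10.9 kb after the Nr4a1 start and 2.67 kb beyond its end (chr15:101277466-101277924). In WT basal it was a strong peak, with a fold of 3.89 from 59 fragments, at the 86.9th percentile. In cKO basal it had a fold of 2.62 from 36 fragments. The 2 peaks shared 35 bp and their summits lay 241 bp apart, so they were separate sites when an overlap of 50% of the shorter peak was required. The weakest WT KCl and cKO KCl peaks at such a background had 30 fragments each. A weaker peak beside it (chr15:101278007-101278282, fold 2.67) was in WT basal alone. The other site of this pattern lies at the promoter of Stx17, a syntaxin of autophagosome fusion, 79.8 kb after the Nr4a3 start (chr4:48124866-48125316), with folds of 3.21 in WT basal and 3.34 in cKO basal.

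Genotype patterns were as sparse. Both cKO lists and neither WT list had 2 sites, against 1.30% of all regions, and both WT lists and neither cKO list had 0, against 1.86%. One of them lies 57.1 kb after the Nr4a3 start (chr4:48102239-48102520), with folds of 3.06 in cKO basal and 2.62 in cKO KCl from 33 and 26 fragments. The other lies 21.4 kb after the Nr4a2 start (chr2:57102355-57103023), with folds of 2.96 and 2.99, but its 2 peaks shared 1 bp and had summits 264 bp apart. It was 2 sites under the stricter overlap. WT basal and cKO KCl alone, the longest 2 lists, shared 2 sites, against 3.86%. One lies 25.8 kb before the Nr4a1 start (folds 2.46 and 3.19) and one 7.92 kb after that of Nr4a2 (2.81 and 2.37). WT KCl and cKO basal alone shared 0 sites, against 0.695%.

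**Figure D3:**
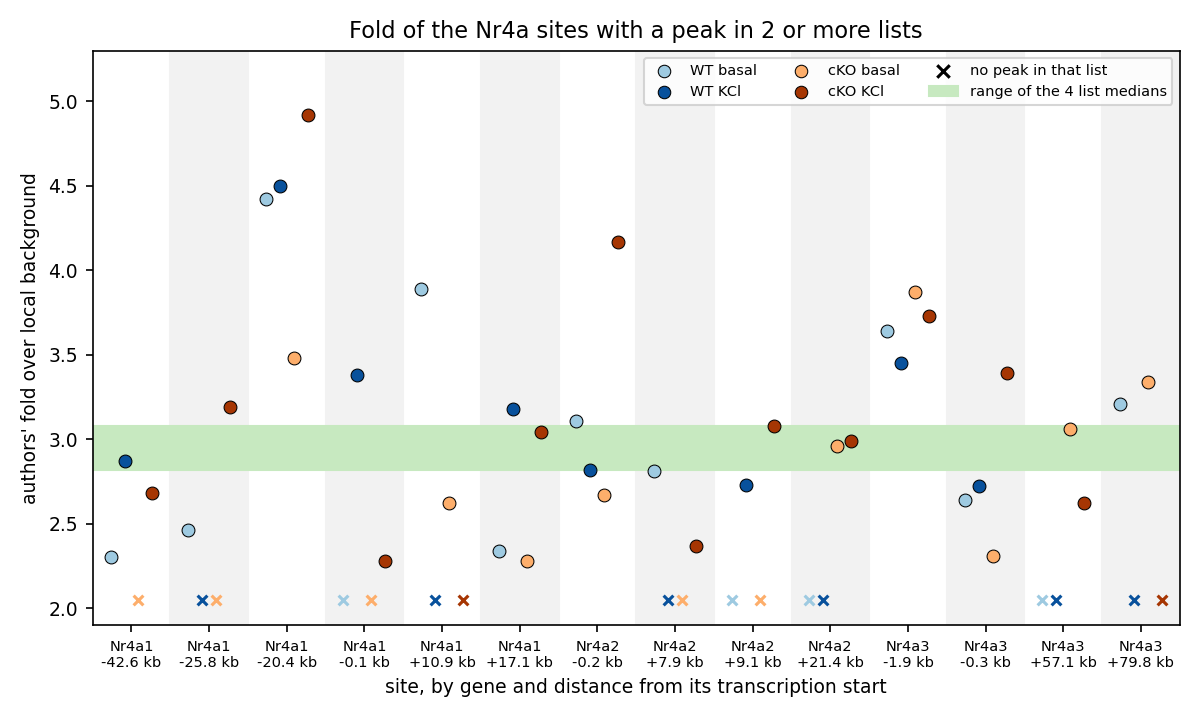
The authors' fold over the local background at the 14 Nr4a sites with a peak in 2 or more lists, by gene and distance from the transcription start. Circles are peaks, crosses mark lists without a peak, and the green band spans the median folds of the 4 lists, 2.82 to 3.08. The site 20.4 kb before Nr4a1 reaches 4.92, and the Nr4a1 promoter has circles in the KCl lists alone, at 3.38 and 2.28.

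The 12 sites in 1 list were weak. Their folds were 2.35 to 3.09, and 1 of the 12 was above the median fold of its list, compared with 12 of the 20 peaks at sites in all 4 lists. The same count over all regions in 1 list is not given here. Inside the gene bodies, away from the promoters, 6 of 8 sites were in 1 list, near the 71.4% of all regions. In Nr4a1 this was a WT KCl peak 6.30 kb after the start (2.68). In Nr4a2 these were a WT KCl peak at 7.10 kb (3.09) and a cKO basal peak at 12.1 kb (2.5). In Nr4a3 they were neighbouring WT basal peaks at 6.29 kb (2.35) and 6.66 kb (2.53) and a WT KCl peak at 28.3 kb (2.47). Outside the bodies, WT basal alone had a peak 25.9 kb before Nr4a2 (2.82), and WT KCl alone had one 35.7 kb before Nr4a3 (2.92).

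Other sites of the Nr4a1 window lie in or near neighbouring genes, and which gene they serve was not tested. The promoter of Grasp, a scaffold protein gene, 42.6 kb before the Nr4a1 start, had folds of 2.30 and 2.87 in the WT lists and of 2.68 in cKO KCl, with no peak in cKO basal. Its summits lay within 13 bp of each other. Single peaks lay near the end of Grasp in WT KCl (2.60), in Acvr1b, an activin receptor gene, in WT basal (2.40) and in Smim41 in cKO KCl (2.40). Acvr1b held the site farthest from a member, 41.1 kb from the Nr4a1 body. The nearest sites beyond the 50 kb limit were a WT basal peak 61.3 kb from Nr4a1 (2.71), a site of all lists except WT basal 50.1 kb from Nr4a2 (2.57 to 2.96) and a WT basal peak 145 kb from Nr4a3 (3.01).

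Depolarisation of WT neurons was examined by setting WT basal beside WT KCl. Around the 3 genes 15 sites had a peak in WT basal and 13 in WT KCl, with 6 in both, 7 in WT KCl only and 9 in WT basal only. Of all regions in either list, 22.1% were in WT KCl only and 54.1% in WT basal only. Nr4a1 had 7 and 6 sites, Nr4a2 3 and 3, and Nr4a3 5 and 4. Over 19062 protein-coding genes with a region, the median net change was -1 and 65.6% of genes had fewer regions in WT KCl. At equal list length the net change of the 3 genes turned from -2 to 5. The 3 sites of Nr4a1 that only WT KCl had were the promoter, the site 6.30 kb into the gene and that near the end of Grasp.

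In cKO neurons the same comparison gave 10 sites in cKO basal and 13 in cKO KCl, with 7 in both, 6 in cKO KCl only and 3 in cKO basal only. The shares over all regions were 43.2% and 28.5%. Nr4a1 had 3 and 6 sites, a net change that 11.7% of genes reached or passed. Nr4a2 had 3 and 4 sites, and Nr4a3 4 and 3. The 4 Nr4a1 sites in cKO KCl and not in cKO basal were the promoter, the Grasp promoter, the site 25.8 kb before the start and that in Smim41. At equal list length the net change over the 3 genes turned from 3 to -1.

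The loss of Brg1 was examined in each treatment. From WT basal to cKO basal, 7 sites were shared, 3 were in cKO basal only and 8 in WT basal only, against 22.2% and 53.7% of all regions. Nr4a1 had 7 sites in WT basal and 3 in cKO basal, and 12.6% of genes had a net change of -4 or lower. Each of the 3 Nr4a1 sites of cKO basal was also a site of WT basal, although the peaks of both lists did not overlap at the Atg101 promoter and shared 35 bp at the site 10.9 kb after the start. Nr4a2 had 3 in each list, of which the promoter alone was shared, and Nr4a3 had 5 and 4. At equal list length the net change of the 3 genes turned from -5 to 2. From WT KCl to cKO KCl, 8 sites were shared, 5 were in cKO KCl only and 5 in WT KCl only, against 43.7% and 28.1% of all regions. Nr4a1 had 6 in each list, with its promoter, the site 20.4 kb before it and the Grasp and Atg101 promoters shared. The comparisons share lists, so their values are not independent.

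**Figure D4:**
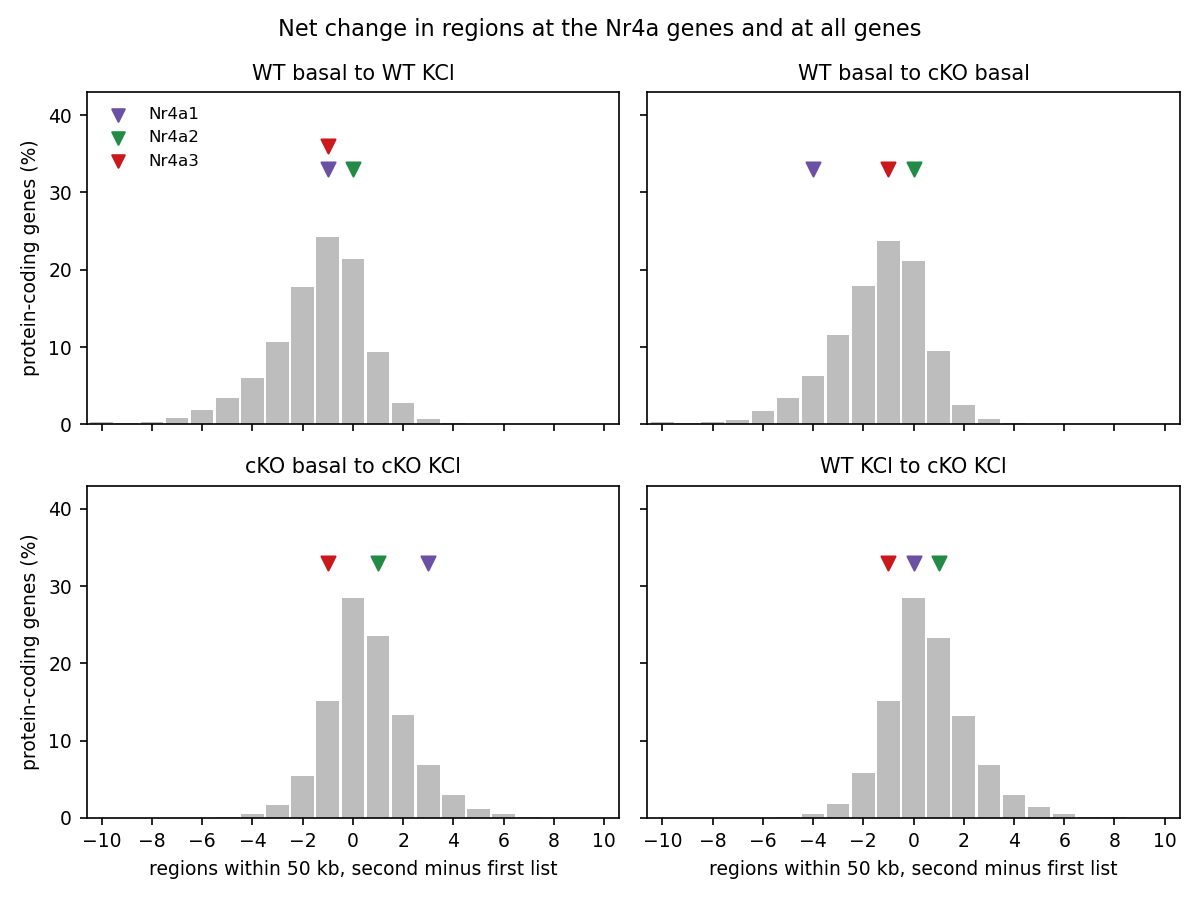
Net change in the number of regions within 50 kb between 2 lists (second minus first) for 19062 protein-coding genes as bars, in percent of genes, and for Nr4a1, Nr4a2 and Nr4a3 as triangles set above the bars. Values beyond 10 are drawn at 10. The members lie between -4 and 3, values that many other genes also had.

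Genes that act with the receptors were taken from a list of 28. Their median net change was -1 from WT basal to WT KCl (5 genes with more regions, 20 with fewer), 1 from cKO basal to cKO KCl (15 and 7), -1 from WT basal to cKO basal (3 and 20) and 0 from WT KCl to cKO KCl (11 and 7). Over all genes the medians were -1, 0, -1 and 0 in the same order. The share of all genes with more regions was 12.9%, 48.5%, 13.1% and 48.3%, and that with fewer was 65.6%, 23.0%, 65.8% and 23.2%. Of the retinoid X receptors, which pair with Nr4a1 and Nr4a2, Rxrg had 9 regions in WT basal, 1 in WT KCl and 3 in each cKO list. Rxrb had 6, 4, 1 and 4, and Rxra had 0 and 0 in WT and 4 and 1 in cKO. Among corepressors, Rcor1 (CoREST, a partner of Nr4a2) had 8, 2, 5 and 5.

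Of the coactivators, Crtc3 had 6 and 6 regions in the WT lists and 0 and 3 in the cKO lists. Crtc2 had 8, 4, 6 and 6 (basal and KCl of WT, then of cKO), the acetyltransferase gene Crebbp 7, 4, 2 and 3, and Ep300 6, 5, 3 and 4. Upstream factors with large differences were Srf (8, 2, 7 and 5), Mef2d (9, 3, 4 and 6) and Mef2a (1, 5, 2 and 3). Among genes known as targets, all 7 had fewer regions in cKO basal than in WT basal, as did 65.8% of all genes. They included Slc6a3, the dopamine transporter (6 and 1), Ret (5 and 2), and Pomc, a target of Nr4a1 in pituitary cells (8 and 2). Bdnf had 2, 3, 0 and 5.

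Of 17 other rapid response genes, those with region counts most like Nr4a1 over the 4 lists were Npas4 (6, 6, 4 and 5), Fos (6, 4, 4 and 6) and Btg2 (5, 4, 2 and 5), with summed absolute differences of 3, 4 and 6. For Nr4a2 they were Gadd45b (3, 4, 3 and 3) and Maff (2, 3, 4 and 4), at 2 each, and Egr1 at 4. For Nr4a3 they were Gadd45b at 3 and Btg2 and Fos at 4 each. From cKO basal to cKO KCl, 11 of the 17 had more regions and 2 had fewer, against 48.5% and 23.0% of all genes. From WT basal to WT KCl 2 of the 17 had more and 10 fewer, against 12.9% and 65.6%.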

How the data were processed

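The authors deposited 1 narrowPeak table of nucleosome-free ATAC-seq peaks for each condition. Per the submitters' processing notes, Bowtie2 and MACS2 were used on GRCm38 (mm10). Their versions and settings, and how 2 libraries became 1 table, were not given in the sources used. Deposited values per peak are the authors' score (not analysed), the fold of summit pileup over local background (a ratio), −log10 p, −log10 q and the summit offset. Genotype and treatment in a table's name gave its condition.

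Autosomal, X and Y peaks entered, and 5 mitochondrial peaks per table did not. Exon and intron classes were not analysed here. Pileup k and background b were solved from fold = (k + 1)/(b + 1) and the Poisson tail above k, within 0.001 of the deposited −log10 p. Values used Python 3.11.15, numpy 2.4.6, pandas 2.3.3 and scipy 1.17.1. Merging was tested on simulated lists of well separated regions. Joins by a few bases or through another peak, as at the Atg101 promoter, did not occur in them and were not tested. The submitters' notes state 1 depth in reads, the same for all 8 libraries, and a read length of 75 bases. Read counts measured per library or per list were not available, so differences in depth between the lists were seen only through the most frequent background. Genes, promoter windows and their sequences came from RefSeq tables of GRCm38.p6. Promoter windows were listed for 23 of the 28 related genes and 13 of the 17 rapid response genes. No genome sequence or protein table was used, so sites outside promoters have no sequence and proteins were not compared. No columns of unmatched samples were present (0).

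All 3 members and every site are described. Neighbours were named where a site lay in or at them, related genes from differences of 3 regions, and most-alike genes by the smallest sum of absolute differences. Members and lists were chosen with earlier results of these data known. Alternatives were a stricter overlap, −log10 q of at least 2 or 3, equal list lengths, windows of 10 and 100 kb and gene ends within 2.5 kb. Those for the Nr4a1 promoter, and the short CRE element, were added after seeing the data.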

Additional observations from a re-analysis of the deposited data

Results flagged for a closer look

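The number of Nr4a1 sites moved in opposite directions with KCl in the 2 genotypes. The net change from basal to KCl was -1 in WT (7 and 6 sites) and 3 in cKO (3 and 6 sites). With 1 list per condition this difference was not tested. The lists moved the same way in length, from 34061 to 20229 peaks in WT and from 20484 to 25690 in cKO, and the part of list length in the result was not tested. With all lists at 20229 peaks, the net change of Nr4a1 was 3 in WT and 1 in cKO.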

How the results depend on the processing

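No paired analysis was possible because each condition has 1 list without libraries, and leaving out a replicate was not possible for the same reason. Net changes over the 3 genes are given in the order WT basal to WT KCl, cKO basal to cKO KCl, WT basal to cKO basal and WT KCl to cKO KCl, with main values of -2, 3, -5 and 0. With lists of equal length (20229 peaks) they were 5, -1, 2 and -4, so 3 turned direction. WT KCl, as the shortest list, was left whole. WT basal then had 8 Nr4a sites and not 15, and 1 KCl list had a peak over the Nr4a1 promoter and not 2. With −log10 q of at least 3 they were 0, 1, -3 and -2, with a window of 10 kb 0, 1, -2 and -1, and with one of 100 kb -5, 2, -5 and 2. With −log10 q of at least 2, or an overlap of 50% of the shorter peak, none of the 4 net changes differed. Per gene, the change from WT basal to WT KCl turned to 1 with −log10 q of at least 3 and to 3 at equal length for Nr4a1, and to 1 at equal length for Nr4a3. That of Nr4a3 from WT basal to cKO basal turned to 1 at equal length. The count of sites in all 4 lists stayed between 4 and 6 under the 6 alternatives, and 7 sites at a gene end became 10 within 2.5 kb. Nr4a peaks had 25 to 68 fragments at the summit, so the absence of a weak peak from a list is a threshold call.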

Other observations

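Of the 17 other rapid response genes, 13 had a listed promoter window. In WT the promoters of 5 had a basal peak and those of 8 a KCl peak, and in cKO 6 and 8. Of all promoter windows, 39.0% and 34.2% had one in WT, and 32.6% and 39.2% in cKO. These shares count single windows, whereas a gene with several windows was counted when any of them had a peak. Among the 13, the promoters of Junb, an AP-1 subunit gene, and Gadd45b, a stress and demethylation gene, had a peak in the KCl lists alone, like Nr4a1. Of all promoter windows with a peak in any list, 2.80% had this pattern. The other genes differed: Fos, Jun and Btg2 had a promoter peak in all 4 lists, and Fosb, Npas4 and Ccn1 in none. Egr2 had one in WT basal only, Egr4 in cKO KCl only, Dusp1 and Maff in all but WT basal, and Klf4 in all but cKO KCl. Junb had folds of 2.53 in WT and 2.93 in cKO, and Gadd45b had 3.10 and 3.02. Within their lists the Junb peaks stood at the 11.2nd and 40.8th percentile of fold, and those of Gadd45b at the 54.8th and 47.9th. Summit pileups at the promoters of Nr4a1, Junb and Gadd45b were 36 to 47 fragments over backgrounds of 13.2 to 15.4.

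The short CRE element was also found in windows of the rapid response genes, with at least 1 copy in 14 of 19 (23.6% of all windows) and at least 2 in 9 (6.25%). Of the 35 windows of the related genes, 9 had at least 1 and 3 at least 2. Windows with 4 copies numbered 0 of 19 and 0 of 35. The 19 windows belong to 13 genes and the 35 to 23. Several windows of the same gene, as for Egr2, Maff and Bdnf, were counted separately. Dusp1, a MAP kinase phosphatase gene, had 3. Junb had 1 and Gadd45b had 0.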
